A study of Mus musculus with 4 samples.

Results

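Imprinted genes are expressed mainly from the chromosome inherited from one parent. Trimethylation of lysine 9 of histone H3 (H3K9me3), which marks silenced chromatin, is described here at 6 of them in microglia, the brain's own macrophages. The genes were Slc38a4, Cdkn1c, Rasgrf1, Kcnq1, Usp29 and Trappc9. They were chosen by the authors' deposited lists of H3K9me3 regions that were higher or lower after loss of Arid1a, as genes that own the nearest transcription start of a listed region or the intron or exon around it. This gave 7 of 5432 listed regions. Because the genes were selected on being listed, the direction of a region is given as a description.

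Microglia were sorted from the telencephalon of C57BL/6 mouse embryos, which the labels place at embryonic day 14 and the protocol slightly later. The control, labelled WT, was homozygous for floxed Arid1a. The knockout (KO) was a conditional deletion of Arid1a tied to Cx3cr1, a gene expressed in microglia and other mononuclear phagocytes. The product of Arid1a binds DNA as part of the SWI/SNF complex, which remodels nucleosomes. Marked nucleosomes were profiled by CUT&Tag, which tethers a transposase to them through an antibody, on 100000 cells per sample, with 1 H3K9me3 library and 1 IgG library per genotype. The lists give no value per library, no fold change and no p-value. The depth is therefore unknown, the size of a change cannot be given and no difference has a replicate check. The reads were not assigned to parental chromosomes in the lists, so a region can reflect either allele.

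In other cells, the methylated allele of imprinting control regions is known to carry H3K9me3, placed by the methyltransferase SETDB1 that the zinc finger protein ZFP57 and its partner TRIM28 recruit. Such control regions direct clusters of genes. The promoter of the long non-coding RNA Kcnq1ot1 governs Kcnq1 and Cdkn1c, the promoter shared by Peg3 and Usp29 governs the Peg3 cluster, and the Peg13 promoter lies inside Trappc9.

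The regions lay at the transcription start of Rasgrf1 and Slc38a4, upstream of Cdkn1c and Kcnq1, downstream of Slc38a4, and in introns of Usp29 and Trappc9. The 4 regions at Slc38a4, Cdkn1c and Rasgrf1 were in the list of higher regions in KO, and the 3 at Kcnq1, Usp29 and Trappc9 in the list of lower regions. The share higher was 57.1% (exact Clopper-Pearson 95% interval 18.4 to 90.1, counting error only), beside 64.2% higher and 35.8% lower among all 5432 regions. With 7 regions the interval includes that background, and the share is no result about these genes. None of the 6 genes was in both lists, but only Slc38a4 had more than a single region and could have been. Among protein-coding genes with a region, 232 of 2338 were in both, and that total also includes genes with a single region.

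Both regions at a transcription start can be set beside sequence. A gene can have several annotated starts, and a RefSeq start at or near the region was used for each. For Rasgrf1 this start lay inside the RefSeq gene, which begins at position 89909508. The 250 bases before each start are shown because the Rasgrf1 stretch lay wholly inside its region and the Slc38a4 stretch next to its own. They are in GRCm38.p6, from chr9:89909525-89909774 on the plus strand and chr15:97055957-97056206 on the minus strand, written 5′ to 3′ with CpG sites, the targets of DNA methylation, in capitals.
Rasgrf1: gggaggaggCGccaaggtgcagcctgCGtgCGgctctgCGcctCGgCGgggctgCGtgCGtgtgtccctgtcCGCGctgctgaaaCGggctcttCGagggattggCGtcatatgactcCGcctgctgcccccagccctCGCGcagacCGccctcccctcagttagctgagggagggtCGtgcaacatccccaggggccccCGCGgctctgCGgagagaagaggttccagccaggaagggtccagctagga
Slc38a4: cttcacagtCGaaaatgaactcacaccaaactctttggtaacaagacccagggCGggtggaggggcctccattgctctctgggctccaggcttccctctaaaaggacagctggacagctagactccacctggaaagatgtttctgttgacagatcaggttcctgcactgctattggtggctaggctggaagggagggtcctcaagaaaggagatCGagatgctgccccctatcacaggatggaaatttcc
The Rasgrf1 promoter held 21 CpG sites and 69.2% G and C, and 83.7% of the 32851 RefSeq promoters of that length held fewer CpG sites. The Slc38a4 promoter shown, the nearest of that gene to a listed region, held 3 CpG sites and 52.8% G and C, and 29.0% of promoters held fewer. Its other promoters, 24.9 and 33.3 kb from a listed region, each held 5 CpG sites, with 46% and 47.2% G and C. The ZFP57 motif TGCCGC, searched on both strands, was in neither stretch shown, and 8.68% of all promoters held it. It was also absent from the same stretch before the starts of Kcnq1ot1, Peg3 and Usp29. Its absence from so short a stretch does not tell whether ZFP57 binds nearby.

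Rasgrf1 encodes a nucleotide exchange factor that activates Ras in neurons, and is expressed from the paternal chromosome in brain. Its region was on chromosome 9 from 89909447 to 89909890, 444 bp wide, in the higher list with a score of 2.41. It ended 18 bp before the start of the Rasgrf1 transcript given in its row. The RefSeq promoter read here, from 250 bases before to 50 after a start inside the gene, lay inside the region in full. Such full cover applied to 4 of 32851 promoters, but a listed region touched the 250 bases of only 30. The other fully covered promoters were those of Gm42215 and Olfr95 in higher regions and of Gm40042 in a lower region. Rasgrf1 was chosen for its listed region, so its place among all promoters is no result. Of the 30 promoters whose 250 bases were touched by a listed region, only Mfap3l, with 23, had more CpG sites than Rasgrf1, and the median was 3.5. The methylated control element of Rasgrf1 is known to lie upstream of the gene. The nearest listed region on that side was 149 kb away at Gm29608, also higher, with a score of 4.02. The lists number regions in order of position, and 1 number falls between the Gm29608 and Rasgrf1 regions that is in neither list and was not analysed here.

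Slc38a4, which encodes an amino acid transporter and is expressed from the paternal chromosome, was the gene with a pair of regions. The region at its start was on chromosome 15 from 97056353 to 97057019, 397 bp upstream of the start. With a score of 4.01 it ranked above 78.7% of the higher list, and with a width of 667 bp only 5.56% of that list was wider. The other region, from 96986677 to 96987032, lay 7784 bp beyond the far end of the gene and scored 1.69, with 9.35% of the higher list below it. The regions were 69.3 kb apart on either side of the gene, with no listed region between them. The gene body of 61.1 kb held none.

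**Figure D1:**
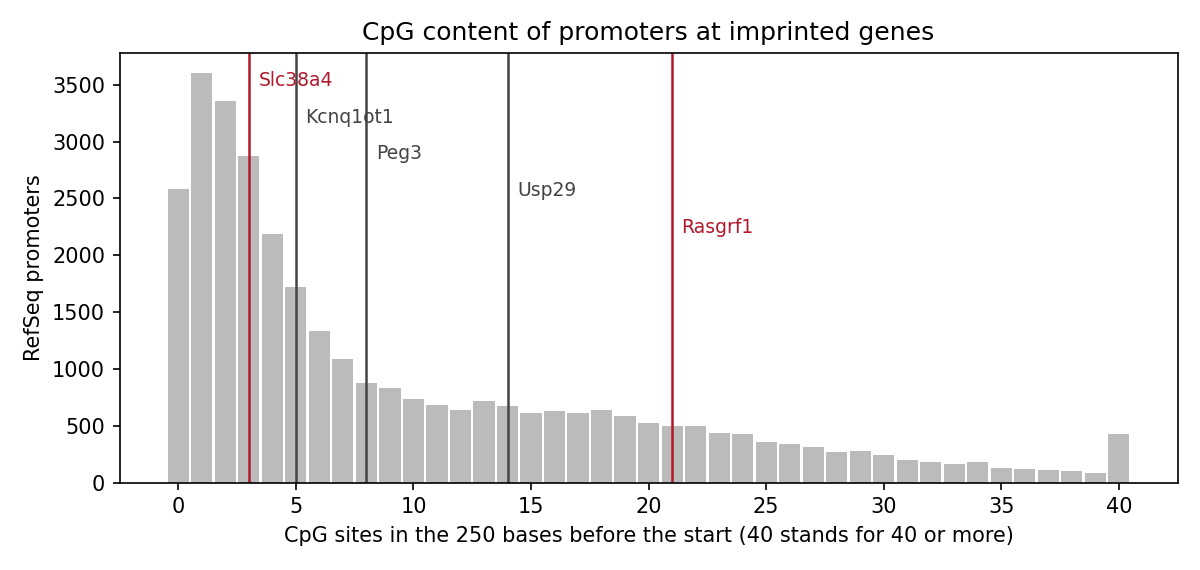
CpG sites in the 250 bases before the transcription start, counted over 32851 RefSeq promoters (grey bars, 40 standing for 40 or more). Vertical lines mark promoters of imprinted genes, red where a listed region lay within 1 kb. For a gene with several promoters, the line marks the promoter nearest a listed region. Rasgrf1 had 21 sites and Slc38a4 3.

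Cdkn1c and Kcnq1 lie in the same imprinted cluster on chromosome 7, and their regions were in opposite lists. Cdkn1c encodes the cell cycle inhibitor p57, expressed from the maternal chromosome. Its region, from 143466785 to 143467137, was 5735 bp upstream of the start, in the higher list, with a score of 3.18 that exceeded 64.2% of that list. Kcnq1 encodes a voltage-gated potassium channel subunit and is also expressed from the maternal chromosome early in development. Its region, from 143102480 to 143102758, was 4496 bp upstream of the start, in the lower list. It scored 2.00, with 312 of the 1944 lower regions below it, and at 279 bp it was the narrowest of the 7.

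The Kcnq1 and Cdkn1c regions were 364 kb apart and consecutive in the authors' numbering. All 320 kb of Kcnq1 lay between them without a listed region, including Kcnq1ot1. That gene runs on the minus strand, with its start 170 kb from the Cdkn1c region and its end 110 kb from the Kcnq1 region. Absence from a gene of that length was common, since 45.2% of 989 protein-coding genes of at least 200 kb held no listed region. On the far side of the Kcnq1 region the next listed region, at 114 kb, was nearest to Tspan32, a tetraspanin gene of the same cluster, and was also lower (score 3.67). On the far side of Cdkn1c, at 302 kb, a region 2 to 3 kb from the start of the receptor gene Mrgprg was higher (3.39).

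The regions of Usp29 and Trappc9 were inside the genes and both in the lower list, beside 36.1% lower among all 2062 regions in introns or exons. Usp29 encodes a ubiquitin-specific protease expressed from the paternal chromosome. Its region, on chromosome 7 from 6881432 to 6881850, lay in intron 3 of 8, 151 kb from the start that Usp29 shares with Peg3, and scored 2.22. Of 1944 lower regions 295 had that same score. The nearest start was that of a predicted gene, Gm44586, at 9188 bp. Peg3 held no listed region, and no region number was missing between the Usp29 region and the listed region on the far side of Peg3.

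Trappc9 encodes a subunit of a complex that tethers transport vesicles, and in mouse brain it is expressed mainly from the maternal chromosome. Its region, on chromosome 15 from 72881445 to 72881877, was in intron 16 of 21 and scored 3.07, above 59.9% of the lower list. It was 71.1 kb from Peg13, which held no listed region, and the numbering had no gap up to the neighbours on either side. The nearest start was Gm3150, at 31480 bp. Usp29 and Trappc9 each held 1 region, as did 31.1% of protein-coding genes of at least 200 kb. That share is over all such genes, including the 45.2% with none. Usp29 and Trappc9 were chosen for holding a region and could not be among those.

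The scores of the 7 regions ran from 1.69 to 4.01, with a median of 2.41, beside 2.65 over both lists. Of the 7, 3 scored above the median of their own list, which was 2.52 for higher and 2.66 for lower regions. Their widths had a median of 419 bp, beside 386 bp over both lists, and 4 were wider than the median of their own list. The score was computed by the authors for each peak, and it ranks regions within a list without giving the size of a change. It is coarse, with 190 distinct values over 3488 higher regions.

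**Figure D2:**
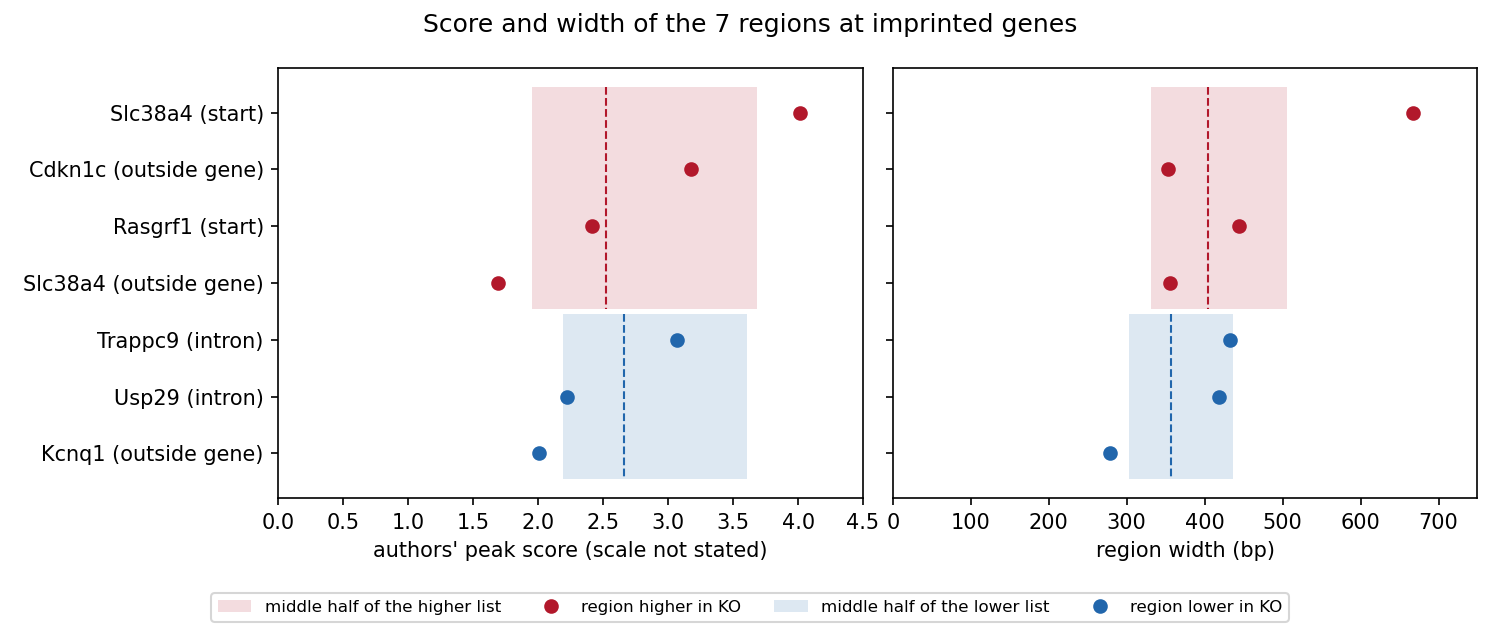
Authors' peak score (left, scale not stated) and width in bp (right) of each region, red for higher and blue for lower in KO; shaded bands span the quartiles of the whole list and dashed lines its median. The Slc38a4 region at the start lies above the bands in both panels, with a score of 4.01 and a width of 667 bp, while the Kcnq1 region lies below both.

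Within 1 Mb of the 6 genes lay 31 listed regions, 19 higher and 12 lower, or 61.3% higher (42.2 to 78.2), beside 64.2% overall. Without the 7 regions of the genes themselves, the 24 neighbours were 15 higher and 9 lower, or 62.5% higher (40.6 to 81.2). On chromosomes 7, 9 and 15, where the genes lie, the shares over all regions were 62.7%, 61.7% and 61.4%. The counts by gene ranged widely. Around Slc38a4, 6 of 7 regions were higher, and around Rasgrf1 7 of 9. Around Kcnq1 and Cdkn1c, which share their neighbourhood, and around Trappc9, 3 of 5 were higher. Around Usp29 all 5 were lower, a share higher of 0% (0 to 52.2), whose interval ends below the 62.7% of chromosome 7. Without the region in Usp29 itself it was 0 of 4 (0 to 60.2). This neighbourhood was singled out of 5 after the values were seen, and the interval treats neighbouring regions as independent. The 5 regions included the one in Usp29 and others nearest to Vmn1r63, 4933402C05Rik, the olfactory receptor gene Olfr1350 and the zinc finger gene Zfp418. Windows of so few regions were not tested against each other.

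**Figure D3:**
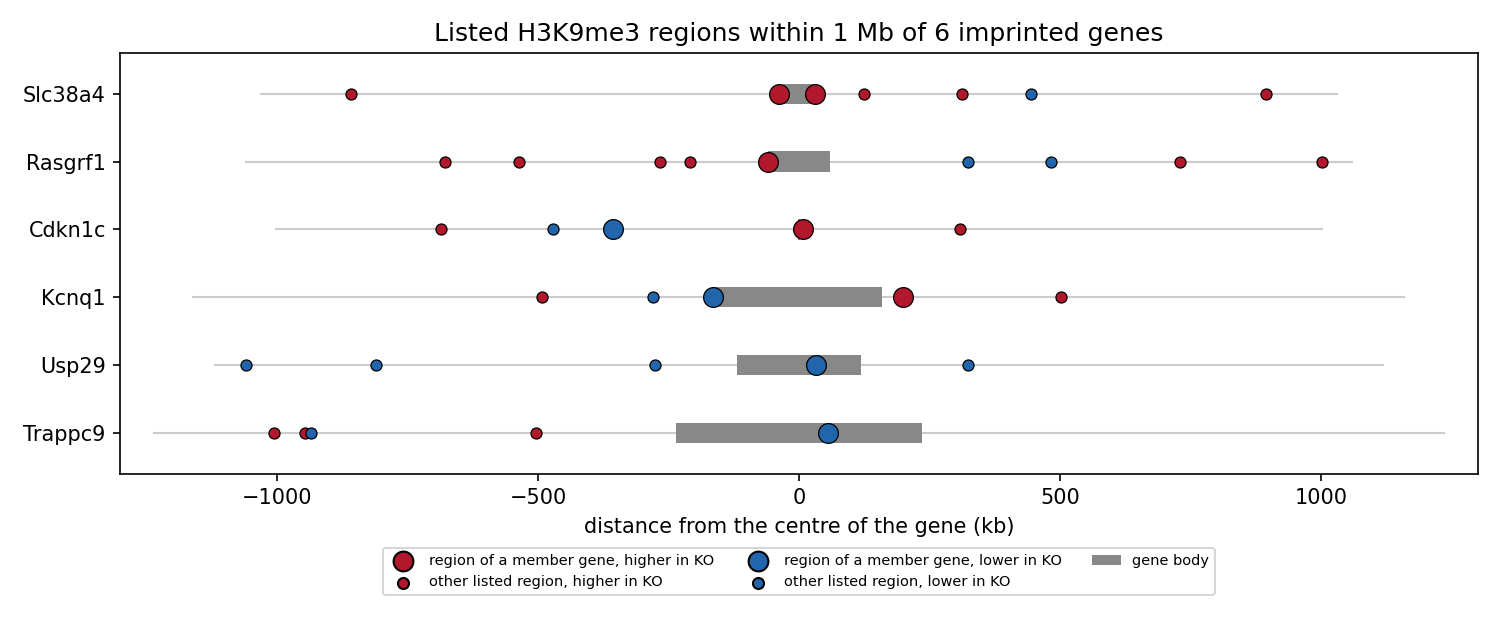
Listed regions within 1 Mb of each gene, by distance in kb from the centre of the gene (grey bar), red for higher and blue for lower in KO, with large points for regions of the 6 genes; Kcnq1 and Cdkn1c share their 5 regions. All 5 points around Usp29 are lower, while 6 of 7 around Slc38a4 are higher.

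The nearest listed regions on either side within 1 Mb were also read pair by pair. Of 11 such pairs, 8 had both regions in the same list, or 72.7%, beside 54.6% of 4755 neighbouring pairs in the lists as a whole. The 11 pairs are few, share regions with each other and start from genes chosen for being listed. The difference between these shares was not tested. The Usp29 region had lower regions on both sides, at Olfr1350 (308 kb) and Zfp418 (291 kb). The Slc38a4 pair had higher regions beyond it, at Gm32885 (92.3 kb) and in an intron of 2610037D02Rik (818 kb). The Trappc9 region differed from its neighbour at Gm23217 (559 kb), which was higher, and the Rasgrf1 region from Gm30849 on its right (383 kb), which was lower.

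Other imprinted genes were read from a list of 96 symbols, of which the 6 genes are part. The list had 14 genes with a region, 8 of them with higher and 6 with lower regions, and 82 with none. The share with a region was 14.6% (8.21 to 23.3), beside 10.7% of 21896 RefSeq protein-coding genes. Without the 6 genes, 8 of 90 had a region, or 8.89% (3.92 to 16.8). The 6 genes were chosen for having a region, so counting them raises the share and leaving them out lowers it. Neither share tells whether imprinted genes differ from other genes. The 8 genes other than the 6 had 6 higher and 3 lower regions, 66.7% higher (29.9 to 92.5), beside 64.2% of all regions. Their median score was 3.67, beside 2.65 for all regions. Both medians pool the lists, although the score ranks regions only within a list. Of these 8 genes, Qpct, Dcn, Slc22a2 and Tspan32 were marked in the list as imprinted mainly in placenta. Their regions scored 2.27 to 11.3, beside 1.69 to 4.23 for Blcap, Htr2a, Wt1 and Gpr1. With the 6 genes the list had 10 higher and 6 lower regions, 62.5% higher (35.4 to 84.8). Without the genes marked as mainly placental it had 7 higher and 4 lower, 63.6% higher (30.8 to 89.1). Promoter sequences were at hand for 70 genes of the list, and among these no promoter other than those of Rasgrf1 and Slc38a4 lay within 1 kb of a listed region. Only 168 of all 32851 promoters, or 0.511%, lay that close. With so low a share the absence is no result about imprinted promoters, and Rasgrf1 and Slc38a4 were chosen for being listed. Several genes of the list are reported as imprinted only in some tissues.

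Among the other genes of the list, Qpct, which encodes glutaminyl cyclase, had 2 higher regions in its introns 1 and 3, with scores of 11.3 and 2.27. Blcap, which surrounds the imprinted gene Nnat, had a higher intergenic region (4.23) 11972 bp upstream. The proteoglycan gene Dcn had a higher region in intron 3 (5.70), the serotonin receptor gene Htr2a a distal one (2.82) and the transcription factor gene Wt1 one in exon 6 (1.69). The lower regions beside that of Tspan32 were in intron 6 of the organic cation transporter gene Slc22a2 (3.67), in the Igf2r cluster, and 2052 bp from the start of the receptor gene Gpr1 (1.90). Of 13 named clusters, only those of Kcnq1ot1 and Igf2r, 2 in all, had a region through genes other than the 6. Those genes, Tspan32 and Slc22a2, were both marked as imprinted mainly in placenta. Another 4 had regions through the 6 genes alone. Among these, Rasgrf1 and Slc38a4 were each listed as a cluster of 1 gene, so no other gene could have a region there. The remaining 7 had none, namely those of H19, Snrpn, Dlk1, Gnas, Peg10, Mest and Grb10. These held 2 to 9 genes each in the list, and only 10.7% of protein-coding genes had a region. Absence from so small a cluster is therefore no result about it.

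**Figure D4:**
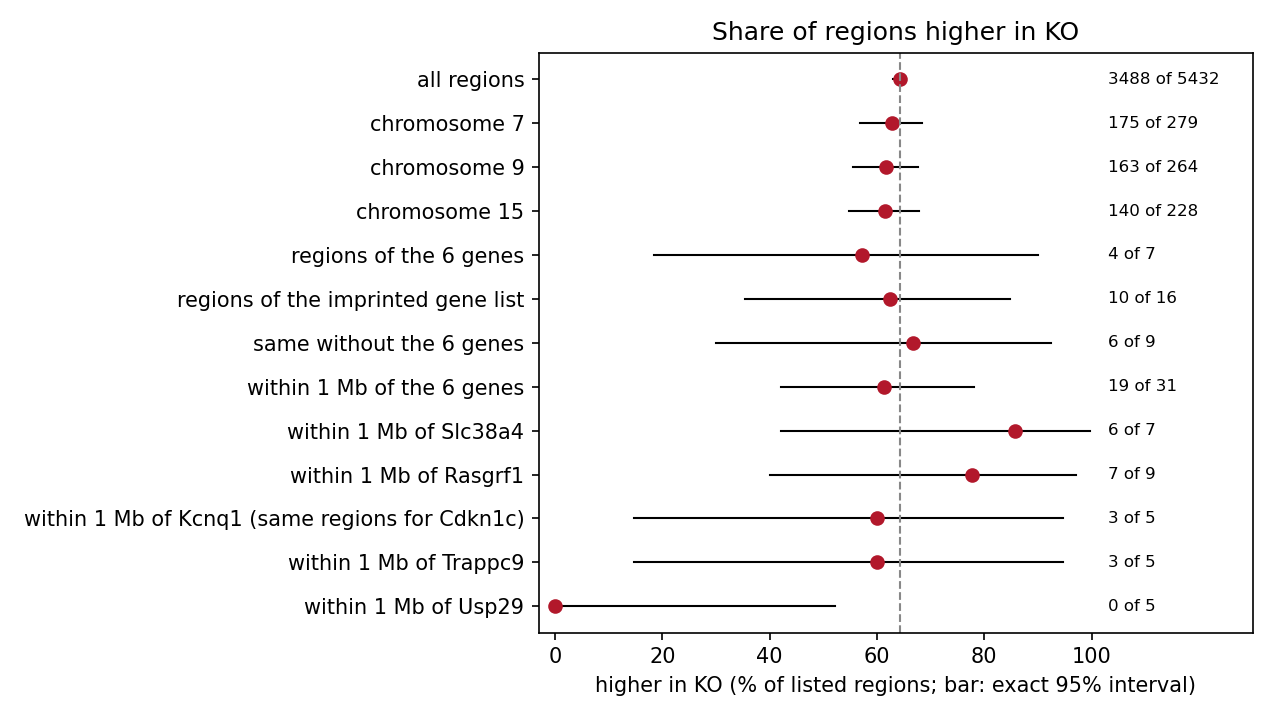
Share of listed regions that were higher in KO, in percent, with exact 95% binomial intervals as bars and counts at the right; the dashed line is the 64.2% of all regions. The interval around Usp29 (0 of 5) ends at 52.2%, below the line, and those of the other sets include it.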

How the data were processed

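Sorted microglia gave 4 CUT&Tag libraries in 4 groups, amplified over 14 cycles per the labels' protocols. Bowtie2 2, CASAVA 1.4, FastQC and the build mm9 appear in the submitters' processing notes with no role. How peaks were called, how regions were listed and whether IgG was used is not given in the sources used here. Both deposited tables give a peak score per region, whose scale is not stated, with position, width, annotation and nearest start, per the file headers.

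Coordinates were read as GRCm38 because 3842 of 3852 transcripts with a matched symbol overlapped the GRCm38.p6 RefSeq gene of that name, only 2 regions started past the last gene of their chromosome, and regions on X reach 170005791, past the end of that chromosome in mm9. Region numbers run to 6359, and 927 are in neither list.

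Regions were matched to genes by nearest start or by the gene in the annotation brackets, and all 6 genes were found in RefSeq. Promoters of 3 of the 6 genes were in the sequence table. In the 96-gene list, 93 symbols matched RefSeq, and of the rest Phf17 is an older symbol of Jade1, also in the list, so that the list holds 95 distinct genes, and Nespas is named Gnasas1 there. Members, lists and the naming rule (all 6 genes, other listed imprinted and imprint maintenance genes with a region, and the nearest listed regions) were chosen with earlier results of these data known. Mfap3l, the fully covered promoters and the other regions around Usp29 were named after their values were seen. No test between genotypes was possible with 1 library per group. Counting and motif steps were tested on simulated data. Alternatives changed the gene assigned, the score minimum, the distance and the window. Python 3.11.15 was used with scipy 1.17.1, pandas 2.3.3, matplotlib 3.10.9 and numpy 2.4.6. Counts over cell type markers are not reported here.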

Additional observations from a re-analysis of the deposited data

How the results depend on the processing

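Of 18 alternatives to 6 values, 16 left the value within its 95% interval, within 1.5 times the count or within the spread of scores. The other 2 moved with the gene assigned to a region. With the host gene alone, 2 genes remained, Usp29 and Trappc9, and the share higher was 0% of 2 regions, beside 57.1% of 7. With the nearest start alone it was 80% of 5 regions, from 4 genes. A score at least 1 above the smallest of its list left 4 regions, 75% of them higher. The share within 1 Mb, 61.3%, was 53.8% within 250 kb, 57.1% within 500 kb and 63.0% within 2 Mb. Every interval is wide because few regions are listed. The depth is unknown, and unequal depth of the H3K9me3 libraries can change which regions were listed. No paired analysis was possible because each group held 1 library.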

Other observations

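Genes for factors that set or keep imprints were read from a list of 20. Of these, 3 had a region, or 15% (3.21 to 37.9), beside 10.7% of protein-coding genes. All 3 regions were in the higher list, beside 64.2% of all regions, and the exact interval for 3 of 3 (29.2 to 100%) includes that share. The regions lay in intron 2 of Arid4b (score 1.48), which encodes a chromatin-binding protein of a histone deacetylase complex, in exon 10 of Ctcfl (2.27), the testis paralogue of the insulator gene Ctcf, and 50754 bp from the start of the zinc finger gene Zfp42 (1.95). All 3 scored below the median of the higher list, 2.52. No region was listed for the other 17, among them Zfp57, Trim28, Setdb1 and Dnmt1.

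The lists hold no expression values, so the identity of the sorted cells could not be checked by marker level.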
